A study of Mus musculus with 6 samples.

Results

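The proximal miRNAs of the imprinted Dlk1-Dio3 region were followed in mouse liver: the 33 mature miRNAs of the deposited table that start on the plus strand of chromosome 12 between 109540000 and 109699999 (mm10), of 1907 in all. The rule used position alone and no measured value, but the members were chosen with earlier results of these data known. Small RNA was sequenced from normal liver of C57BL/6N mice aged 12 weeks on PicoLab chow, 3 females and 3 males described as littermates. None of them carried a transgene, deletion or treatment, per the labels, so the only comparison the design allows is between the sexes. The series as a whole concerns SAB, a mitochondrial protein, and liver injury that depends on sex.

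The Dlk1-Dio3 region is imprinted: the protein-coding genes Dlk1, Rtl1 and Dio3 are read from the paternal chromosome, and long noncoding RNAs are read from the maternal chromosome. Those noncoding RNAs, Meg3, the antisense transcript of Rtl1, Rian and Mirg, carry snoRNAs and a long row of miRNA hairpins. Rtl1 encodes a retrotransposon-derived protein needed in the placenta, and miRNAs cut from its antisense transcript pair with the Rtl1 mRNA and direct its cleavage. The cluster is known for strong expression in embryo, placenta and brain and for low expression in adult liver.

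The label of the antisense side of Rtl1 was borne out by position for 11 of the members. Of the 33 members, 11 lay within the coding exon of Rtl1, which is on the minus strand (Rtl1, 109589193 to 109600330; coding part 109590172 to 109595403, 5232 bases). The reverse complement of each of these 11 was found letter for letter in the annotated Rtl1 transcript. That match follows from their position on the opposite strand and is no separate support. Another 2 members lay within exons of Meg3, 13 between Meg3 and Rtl1, 6 in introns of Rian, and 1, miR-882, 20491 bases beyond the end of Rian. All 33 matched a mature miRNA of RefSeq (GRCm38.p6) at the same position, with lengths from 19 to 26 bases. They came from 18 hairpins, so arms of the same hairpin are not separate transcripts.

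Most of the reads came from a few of these miRNAs, whose mature sequences are shown because the results below turn on them; capitals mark the seed, bases 2 to 8, with which a miRNA finds its targets.
miR-337-5p: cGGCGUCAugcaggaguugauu
miR-431-5p: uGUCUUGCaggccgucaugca
miR-127-3p: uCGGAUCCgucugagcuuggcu
miR-434-5p: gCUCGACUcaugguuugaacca
miR-434-3p: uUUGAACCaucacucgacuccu
miR-136-5p: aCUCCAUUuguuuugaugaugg
miR-136-3p: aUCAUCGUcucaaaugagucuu
No seed was shared among these 7, and none was found in another mature mouse miRNA of the RefSeq table. Over all 33 members, 6 shared a seed with another mouse miRNA; miR-3070-3p and miR-3070-2-3p shared theirs with each other.

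For 3 hairpins both arms were counted in every library and lie opposite Rtl1; they are shown with the mature arms in capitals, since the 2 arms are compared below.
Mir127: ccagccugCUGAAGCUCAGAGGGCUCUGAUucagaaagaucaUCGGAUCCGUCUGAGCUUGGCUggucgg
Mir434: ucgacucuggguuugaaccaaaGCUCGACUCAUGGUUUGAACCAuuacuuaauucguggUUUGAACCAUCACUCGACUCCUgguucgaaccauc
Mir136: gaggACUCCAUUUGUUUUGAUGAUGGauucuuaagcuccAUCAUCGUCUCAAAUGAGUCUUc
The stretch of Rtl1 mRNA opposite miR-127-3p reads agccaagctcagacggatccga, at coding bases 2495 to 2516 counted from the first base of the start codon. The miR-136 arms lie near that start, miR-136-3p at 17 to 38 and miR-136-5p at 52 to 73. Next come miR-432 at 376 to 398, miR-434-3p at 818 to 839 and miR-434-5p at 855 to 876. The hairpin of miR-431 lies farthest into the coding part, with miR-431-5p at 4925 to 4945.

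Library totals ranged from 3285249 to 16444674 counts, and on these plain totals 1 count was worth from 0.0608 CPM in the deepest library to 0.304 CPM in the shallowest. CPM scales counts to a common library total. Levels below use TMM-adjusted library sizes, TMM being a scaling that holds most miRNAs level between libraries. The limits for a count of 0, and the summed levels set beside them, use the plain totals. A read covers a whole mature miRNA, so no length scaling enters. The sample titles number the males first and the females after them, so an effect of handling order and one of sex cannot be told apart. In bulk liver, fewer cells of a type and less RNA per cell cannot be told apart either.

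Reads were concentrated in the antisense side of Rtl1. Its 11 members held 94.7% of the 33 members' counts over all libraries, and between 92.7% and 96.0% in each. The 13 members between Meg3 and Rtl1 held 4.20%, most of it in the miR-337 hairpin, the 6 members in Rian 0.989%, and the 2 in Meg3 0.0749%. Altogether 30 of the 33 were seen in at least 1 library and 3 were not, against 313 of 1907 miRNAs not seen in the whole table. Only 7 members passed the filter on low counts and were tested, 21.2% of the 33, against 19.4% of the table. These 7 held from 95.2% to 96.4% of the members' counts in a library, and 6 of them lie opposite Rtl1.

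**Figure D1:**
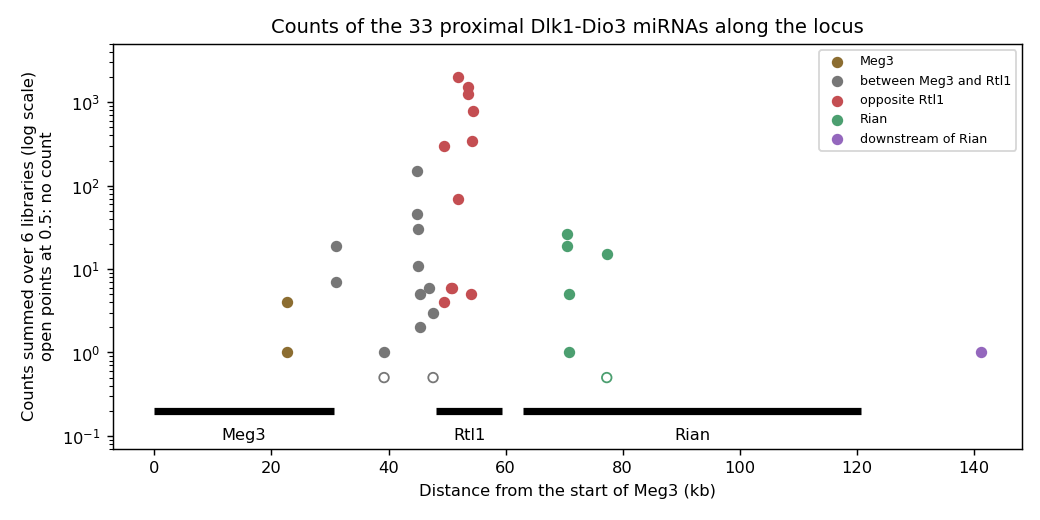
Counts of each of the 33 miRNAs summed over the 6 libraries (log axis) against the distance of its start from the start of Meg3, in kb; colours give the position class, open points had no count, and black bars mark Meg3, Rtl1 and Rian. The highest points, up to 2017 counts for miR-127-3p, all lie over Rtl1, while no member in Rian passed 26.

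Summed over the 33 members, the level was 166, 268 and 233 CPM in female replicates 1, 2 and 3 and 150, 171 and 140 CPM in the male replicates. The female mean was 223 ± 52.0 CPM and the male mean 154 ± 16.0 CPM (SD, n = 3 each). Female replicate 1 lay inside the male range, and the other females lay above every male. Without miR-127-3p, the most abundant member, the sums were 116, 212 and 191 CPM in females and 107, 82.9 and 95.0 CPM in males, and every female lay above every male. A sum over members chosen as a group was given no test.

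Of the 7 tested members, 2 rose in females and none fell at an adjusted p of 0.05 (edgeR quasi-likelihood test, Benjamini-Hochberg adjustment over all 370 tested miRNAs): miR-136-3p and miR-431-5p. Over all tested miRNAs, 6.76% passed, 3.24% higher and 3.51% lower in females. At an unadjusted p under 0.05 there were 5 of the 7, all with higher values in females, against 67 of 370 (18.1%) in either direction over all tested miRNAs. The 5 were both arms of miR-136, both arms of miR-434, and miR-431-5p, so they were not 5 separate transcripts. The log2 fold change, female over male, was above 0 for 6 of the 7, with a median of 0.87, against a median of -0.01 and 48.1% above 0 over all 370.

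miR-136-3p is the arm of miR-136 that took most of its reads here, and miR-136 is known to guide cleavage of the Rtl1 mRNA. It lies on chromosome 12 from 109595366 to 109595387. Its level was 20.6, 42.0 and 32.8 CPM in the females and 16.4, 14.9 and 14.9 CPM in the males. The males lay close together, and all females lay above them, with female replicate 1 the nearest. The means, 31.8 ± 10.7 against 15.4 ± 0.886 CPM (SD, n = 3 each), differed 2.06-fold, with a log2 fold change of 1.03 (SE 0.26, adjusted p = 0.0438, edgeR). The authors' counts of this arm carried decimals in 5 libraries, and adding miR-3071-5p, which overlaps it on the opposite strand, gave whole numbers in all 6. That partner held 3.84% of the counts of the pair, and with its counts given back to miR-136-3p the call stood (adjusted p = 0.0455, edgeR).

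miR-431-5p, from a hairpin near the 3′ end of the Rtl1 coding part (109590459 to 109590479), is another miRNA that pairs with Rtl1. It stood at 8.26, 12.7 and 14.3 CPM in females and at 5.38, 5.67 and 6.29 CPM in males. Groups did not overlap, and again female replicate 1 was the lowest of the females. The means were 11.7 ± 3.12 and 5.78 ± 0.464 CPM (SD, n = 3 each), a 2.03-fold difference, with a log2 fold change of 0.98 (SE 0.27, adjusted p = 0.0478, edgeR). Its other arm, miR-431-3p, had 4 counts in all against 303 for miR-431-5p.

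Both calls lay close to the threshold and were lost when any of several libraries was left out. With a library left out, the log2 fold change was 0.76 to 1.26 for miR-136-3p and 0.82 to 1.19 for miR-431-5p. Neither passed without female replicate 2 (adjusted p = 0.172 for miR-136-3p and 0.176 for miR-431-5p, edgeR), female replicate 3 (0.145 and 0.239), male replicate 1 (0.0573 and 0.105) or male replicate 3 (both 0.104), and without male replicate 2 only miR-136-3p did (0.0474 and 0.0568). Without female replicate 1, 5 of 8 tested members were higher, namely both arms of miR-434 and of miR-136 with miR-431-5p, where 6.08% of all tested miRNAs were. No member was called with upper-quartile factors or in limma-voom, and DESeq2 called 4, where it called 4.59% of all tested miRNAs higher.

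The miR-434 hairpin gave similar numbers of reads from its arms, and neither arm passed. miR-434-3p (109594565 to 109594586) stood at 39.8, 62.6 and 60.7 CPM in females and 36.1, 29.99 and 30.7 CPM in males, a log2 fold change of 0.75 (SE 0.23, adjusted p = 0.0809, edgeR). Every female lay above every male for this arm. miR-434-5p (109594528 to 109594549) stood at 30.1, 61.5 and 48.5 CPM in females and 31.3, 18.7 and 25.5 CPM in males, with a log2 fold change of 0.87 (SE 0.29, adjusted p = 0.106, edgeR). Here female replicate 1 fell below male replicate 1, so the groups overlapped. In DESeq2 both arms passed (adjusted p = 0.0167 and 0.0348).

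miR-136-5p (109595331 to 109595352) had values of 7.43, 17.4 and 14.5 CPM in females and 6.97, 4.96 and 7.87 CPM in males, a log2 fold change of 0.92 (SE 0.32, adjusted p = 0.132, edgeR). Female replicate 1 lay within the male range. Outside Rtl1 the only tested member was miR-337-5p (109585818 to 109585839), at 2.48, 5.54 and 9.41 CPM in females and 3.80, 2.60 and 2.99 CPM in males. Its female libraries spread from below every male to above every male, with a log2 fold change of 0.81 (SE 0.43, adjusted p = 0.344, edgeR). That value was 0.27 without female replicate 3 and 1.23 without female replicate 1 (adjusted p = 0.866 and 0.071, edgeR). Among the 7 tested members, 3 had every female above every male, as did 10.5% of all tested miRNAs.

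**Figure D2:**
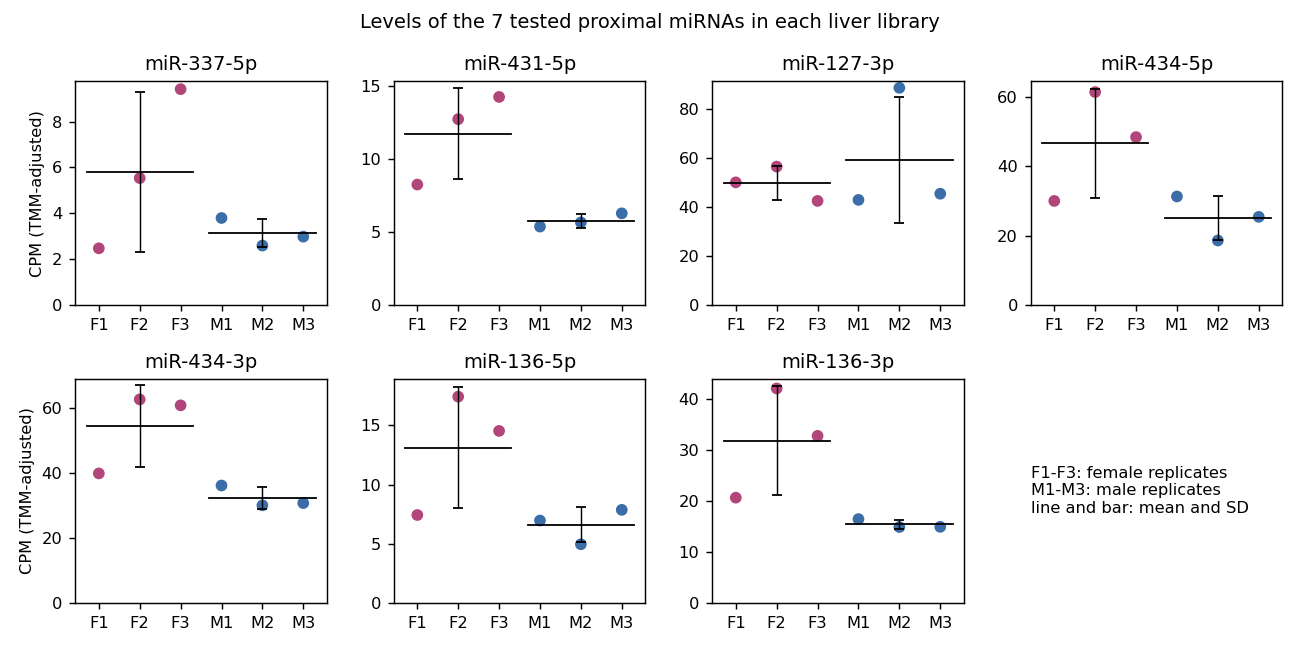
Level of each of the 7 tested miRNAs in CPM (linear axes from 0) in female (F1 to F3) and male (M1 to M3) libraries; lines and bars give the mean and SD of each sex. In 6 panels F2 and F3 lie above all males with F1 nearer to them, whereas miR-127-3p is highest in M2, at 88.6 CPM.

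miR-127-3p, which is known to guide cleavage of Rtl1 and is linked in liver to the nuclear receptors ERRγ and SHP together with miR-433, did not follow the others. It lies from 109592888 to 109592909 and was the most abundant member by mean level, 146th of 1907. Its level was 50.05, 56.5 and 42.5 CPM in females and 42.9, 88.6 and 45.4 CPM in males. Male replicate 2 lay above all others, and the remaining males lay within the female range. The female over male difference, on the log2 scale, was -0.24 (SE 0.28, adjusted p = 0.73, edgeR) and turned to 0.17 without male replicate 2 (adjusted p = 0.659). Male replicate 2 was the highest library for 31.1% of all 370 tested miRNAs and the lowest for 29.5%, more often at each end than any other library. In 15 miRNAs it exceeded every other library by more than 1.5 times, miR-127-3p among them.

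Ratios between members within a library need no scaling and show the same departure. miR-127-3p counts over miR-434-3p counts were 1.26, 0.903 and 0.700 in females and 1.19, 2.95 and 1.48 in males. miR-127-3p made up 30.2%, 21.1% and 18.2% of the members' counts in females and 28.7%, 51.7% and 32.4% in males. By comparison, miR-136-3p over miR-434-3p varied less, at 0.518, 0.672 and 0.539 in females and 0.455, 0.496 and 0.486 in males. Every female lay above every male in this ratio, which was not tested. miR-431-5p over miR-434-3p ran from 0.149 to 0.235 over the 6 libraries.

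On a log2 scale with each member set against its own male mean, the median of the 7 was 0.26 for female 1, 1.14 for female 2 and 1.09 for female 3. The males had 0.09, -0.10 and -0.05. The excess over males was thus carried by female replicates 2 and 3, where 6 of the 7 lay between 0.82 and 1.59 log2 units above the male mean. These were also the shallowest libraries, with totals of 3506853 and 3285249 counts. Female replicate 1 had 5756418 counts and the males 4617647 to 16444674. The part of depth in this excess was not tested. In female replicate 1 the same 6 lay between -0.34 and 0.51, miR-431-5p the highest. In male replicate 2, 4 of the 7 had their lowest value of all libraries and miR-127-3p its highest.

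**Figure D3:**
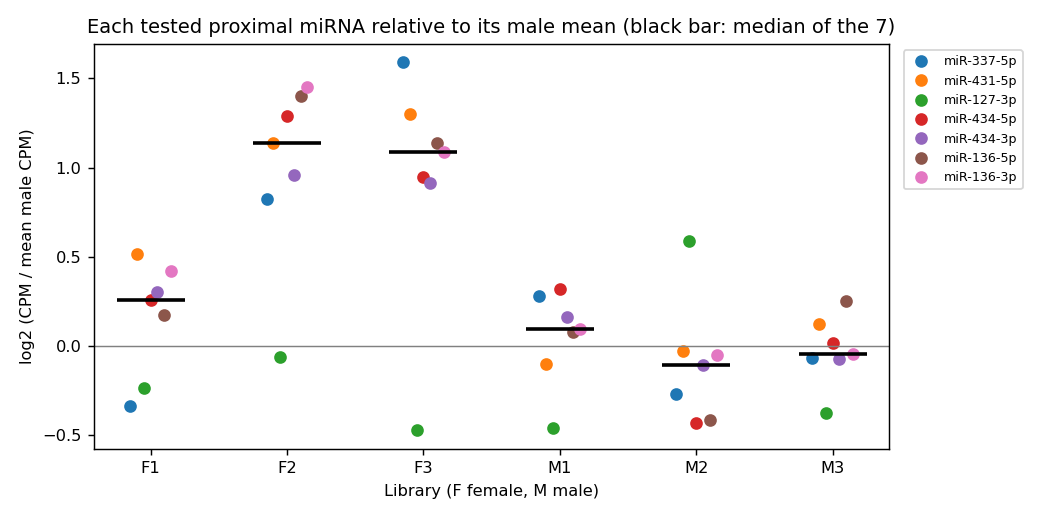
Level of each tested miRNA in each library as log2 of its CPM over its mean male CPM; black bars give the median of the 7 miRNAs. F2 and F3 stand near 1.1, F1 at 0.26, and miR-127-3p lies below the others in F2, F3, M1 and M3 and above them in M2.

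The distal miRNAs of the same region, the 75 of the table on the same strand within 100000 bases after the window, allowed a check of whether the libraries rank alike on both sides. On the same log2 scale the distal median was 0.20, 1.18 and 1.08 for the females, against 0.12, -0.26 and 0.16 for the males. As on the proximal side, female 1 lay nearest to the males. Of 19 tested distal members 18 had a log2 fold change above 0, with a median of 0.82, and 2 passed, miR-411-5p at 0.86 and miR-541-5p at 0.99 (adjusted p = 0.0454 and 0.023, edgeR). Proximal and distal values come from the same libraries, so neither side is independent support for the other.

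Counted over all members, proximal reads were 0.137, 0.170 and 0.160 of distal reads in females and 0.116, 0.0634 and 0.112 in males. These ratios averaged 0.156 ± 0.0168 in females and 0.0973 ± 0.0294 in males (SD, n = 3 each), and the groups did not overlap. The top member of each side was then left out, both at once: miR-127-3p and the distal miR-369-3p, named after its values were seen. The latter stood at 2354 CPM in male replicate 2 and between 696 and 882 CPM elsewhere. Its counts over the other distal counts were 1.58, 0.820 and 0.907 in females and 2.18, 6.71 and 1.79 in males. Reads of miR-369-3p lower the ratio of proximal to distal reads, and those of miR-127-3p raise it. Without these 2 miRNAs the ratio was 0.248, 0.245 and 0.249 in females and 0.263, 0.236 and 0.212 in males, 0.247 ± 0.00215 against 0.237 ± 0.0256, and the female values lay within the male range.

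**Figure D4:**
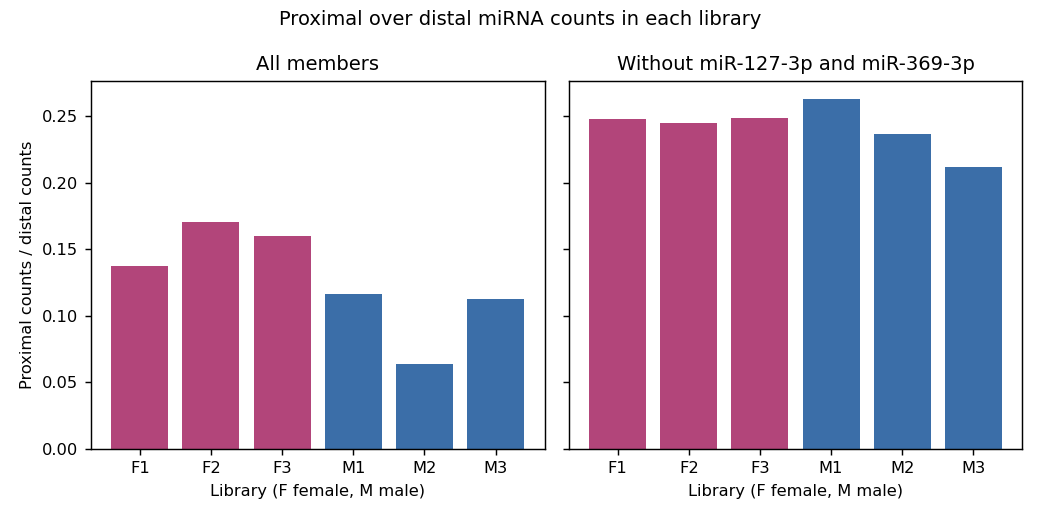
Proximal counts divided by distal counts in each library (linear axis from 0), with all members at left and without miR-127-3p and miR-369-3p at right. At left the bars run from 0.0634 to 0.170 with males lower; at right all 6 lie between 0.212 and 0.263.

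**Figure D5:**
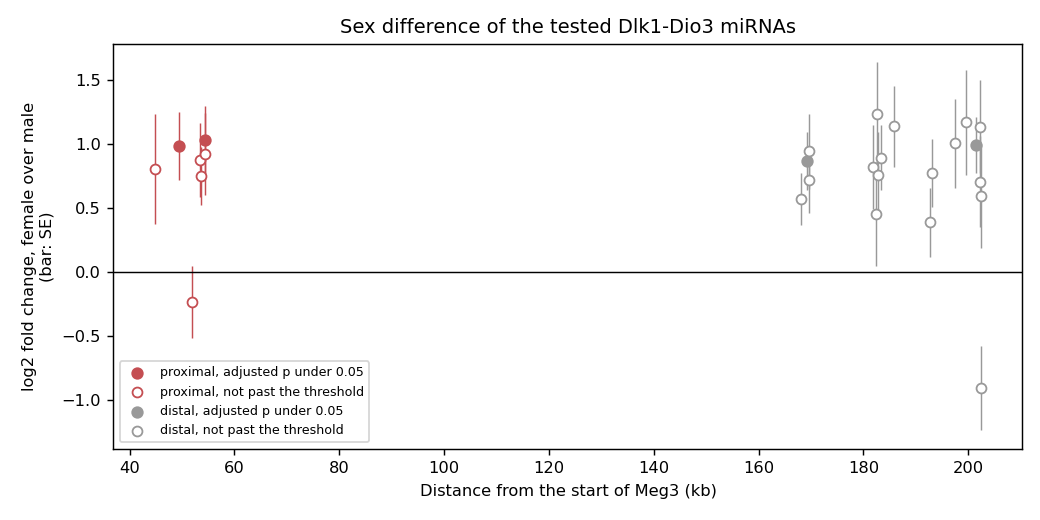
Log2 fold change, female over male, with its SE for the 7 tested proximal (red) and 19 tested distal (grey) miRNAs against the distance from the start of Meg3 in kb; filled points passed the adjusted threshold. Values lie above 0 except for miR-127-3p at -0.24 and miR-369-3p at -0.91.

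The balance of arms was compared in the 2 hairpins whose arms both passed the filter. 5p counts over 3p counts of the miR-434 hairpin were 0.755, 0.982 and 0.798 in females and 0.868, 0.622 and 0.830 in males. For miR-136 they were 0.360, 0.415 and 0.444 in females and 0.424, 0.333 and 0.527 in males. In all 6 libraries the 3p arm led in both hairpins, and the sexes overlapped. Exact two-sided permutation tests of the log2 ratios gave p = 0.6 for miR-434 (difference 0.13, female minus male) and p = 0.9 for miR-136 (difference -0.06), both 0.9 after adjustment over the 2 hairpins; 3 animals against 3 cannot go below 0.1.

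Other hairpins were more one-sided. In miR-127 the 3p arm led in all 6 libraries, with 5p over 3p at 0.0363, 0.0637 and 0.0671 in females and 0.0332, 0.008 and 0.0322 in males. The lowest value belongs to male replicate 2, where miR-127-5p had 3 counts and miR-127-3p 375. The 5p arm led in all 6 libraries for miR-431 and miR-337, with 150 against 46.4 summed counts for miR-337.

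The remaining 26 members were too low to pass the filter, and none exceeded 3.60 CPM in any library. That highest value belonged to miR-127-5p in female replicate 2. This arm had 11, 13 and 10 counts in females and 9, 3 and 23 in males, which is 2.76 ± 0.895 against 1.20 ± 0.424 CPM (SD, n = 3 each). miR-337-3p had 10, 6 and 4 counts in females and 12, 5 and 9.36 in males, or 1.48 ± 0.298 against 1.23 ± 0.653 CPM.

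Between Meg3 and Rtl1, miR-540-3p had 4, 3 and 9 counts in females and 5, 0 and 9 in males. miR-673-5p had 3, 2 and 4 in females and 2, 3 and 5 in males. From the same stretch miR-540-5p summed to 11 counts, miR-673-3p to 7 and miR-665-3p to 5. At such counts no difference between the sexes was detectable.

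miR-3070-3p and miR-3070-2-3p, the 3p arms of separate hairpins with the same seed, had very few reads. miR-3070-3p had 1, 2 and 3 counts in males and 0 in females, while miR-3070-2-3p had 1 in each female and 0 in males. miR-432, opposite Rtl1, likewise had 1, 1 and 3 counts in males and 0 in females. A count of 0 over the 3 females allows up to 0.239 CPM (3 counts), above the summed male levels of 0.218 CPM for miR-3070-3p and 0.182 CPM for miR-432, so these 2 differences were not detectable at this depth. For miR-3070-2-3p the count of 0 over the 3 males allows up to 0.109 CPM, below its summed female level of 0.239 CPM. That case rests on 3 counts in all and did not pass the filter. The fit without a filter, which tested 30 members, did not call it. miR-770-3p, from a Meg3 exon, had 2, 1 and 1 counts in males and 0 in females. Its 4 counts in all were fewer than those of miR-432, so this difference was not detectable either.

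miR-433, which shares its liver regulators with miR-127, was barely detected: miR-433-5p had 6 counts in 5 libraries and miR-433-3p, named after its values were seen, 6 counts in 2. The Rian members were low too. miR-370-3p, known to lower Cpt1a, a fatty acid oxidation enzyme, in liver cells, had 1, 2 and 3 counts in females and 1, 3 and 5 in males. miR-341-5p summed to 26 counts and miR-341-3p to 19. Of the 16 untested members seen in at least 3 libraries, 11 had a higher mean CPM in females and 5 in males, given as a description because the values are so low. A further 7 were seen in fewer libraries, with at most 6 counts each. miR-493-5p, miR-3070-5p and miR-370-5p had no count in any library, which allows up to 0.0749 CPM over all 6.

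The number of members seen was 20, 20 and 18 in females and 22, 17 and 25 in males, the 25 in the deepest library. After thinning every library to 3285249 counts in a single random draw, it was 18, 19 and 18 in females and 16 in each male. Before thinning, the whole table gave 972, 881 and 838 miRNAs in females and 998, 949 and 1296 in males. The number over the whole table after thinning was not taken, so no difference between the sexes is read from the members.

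Other imprinted miRNAs, from Mest, H19, Igf2 and the Gnas locus, were compared as a list of 10. Only both arms of miR-335, from Mest, were tested, at log2 fold changes of 0.21 and 0.25 (adjusted p = 0.697 and 0.532, edgeR), and none passed. Marker miRNAs of other cells were compared in the same way. All 6 stromal markers had negative log2 fold changes, with a median of -0.20 and none past the threshold, and their summed level was 8957 to 11490 CPM in females and 12167 to 12851 CPM in males. All 6 leukocyte markers had positive values, with a median of 0.30 and 1, miR-223-3p, past the threshold, and summed to 4043 to 4598 CPM in females and 2904 to 4458 CPM in males. All 5 biliary markers had negative values (median -0.22, none past the threshold), with sums of 709 to 900 CPM in females and 861 to 1021 CPM in males. All 4 tested erythroid markers had positive values (median 0.18, none past the threshold), with sums of 224 to 378 CPM in females and 235 to 275 CPM in males. Both tested muscle markers were positive and 1 of 2 endothelial markers was, and none passed. In the hepatocyte list, 3 of 5 were positive and the summed level was 395347 to 398456 CPM in females and 421084 to 466099 CPM in males. Most of that sum was miR-122-5p, at 315475 to 316480 CPM in females and 343502 to 387285 CPM in males (log2 fold change -0.21, adjusted p = 0.053, edgeR). Of 4 tested neural and islet markers 2 were positive, and 1 passed: miR-375-3p, abundant in islets, stood at 4.79, 2.49 and 3.14 CPM in females and 1.42, 1.18 and 1.33 CPM in males (log2 fold change 1.43, adjusted p = 0.0438, edgeR). That list summed to 1132 to 1261 CPM in females and 1232 to 1437 CPM in males, nearly all of it miR-7a-5p, and miR-124-3p, the defining neuronal miRNA, was at 0 in every library. The part of any of these cell types in the differences of the Dlk1-Dio3 miRNAs was not tested.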

How the data were processed

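Mature miRNAs were counted in 6 liver libraries, and the values deposited are estimated counts, not normalised, of which 98.9% are exactly whole numbers. Partek and Bowtie with the mm10 build are named in the submitters' processing notes; versions, trimming and the treatment of shared reads: not given in the sources used here. From 2045 rows, 138 exact repeats were dropped. Counts were rounded, filtered with filterByExpr (minimum count 10, minimum total 15) and tested with the robust quasi-likelihood test of edgeR 4.0.16 (R 4.3.3), TMM factors, female against male, without covariates, as the labels give no batch. The SE is the absolute log2 fold change over the square root of F. The test was run on simulated data first. Replicates are numbered in accession order and pair nothing; each library was taken as an animal, and p-values measure the spread between these libraries. The limit of 0 is 3 counts and covers counting error only. Annotation is GENCODE M21, and sequences are from RefSeq. The members, lists and tests were chosen with earlier results of these data known. By the rule for names, every tested member, every untested member seen in at least 3 libraries and every distal member past the threshold are named. Alternatives were other scalings and filters, DESeq2 1.42.0, limma-voom (limma 3.58.1) and leaving out each library.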

Additional observations from a re-analysis of the deposited data

Results flagged for a closer look

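Reads were also assigned to miRNAs on the strand opposite the members, which enter no comparison. miR-3071-5p, opposite miR-136-3p, summed to 31.7 counts over the 6 libraries, miR-3071-3p, opposite miR-136-5p, to 5.14, and miR-3544-5p, opposite miR-337-3p, to 4.64; each is above the 3 counts that a count of 0 allows. In every library these counts and those of the overlapping member add up to a whole number, within 0.001.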

How the results depend on the processing

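The 2 members higher in females became 0 with upper-quartile factors and 0 with a minimum count of 50 (4 members tested). There were 0 in limma-voom and 4 in DESeq2, and from 0 to 5 when a library was left out. No filter also gave 2 (30 members tested), with miR-434-5p in place of miR-431-5p. No member was lower in any fit, DESeq2 and limma-voom included, and in edgeR 0 were at an unadjusted p under 0.05. The median log2 fold change of the 7 ranged from 0.64 to 1.19. With no TMM factor the median of all tested miRNAs moved from -0.01 to 0.13, and that of the 7 from 0.87 to 1.004. Of 102 values of single miRNAs, 80 stayed as they were in sign and in passing or not. Another 15 no longer passed, 6 newly did, and 1 changed sign. The 15 all belonged to the 2 called members: miR-136-3p passed in 8 of its 15 alternative fits and miR-431-5p in 6 of its 14. The change of sign was in miR-127-3p, which ranged from -0.43 to 0.17 with a library left out and was at 0.17 without male replicate 2. Without the most abundant member the log2 ratio of summed levels went from 0.53 to 0.87, and without the top member of each side the proximal to distal ratio went to 0.247 in females and 0.237 in males. Thinning took the members seen per male library from a mean of 21.3 to 16, where fewer counts were left. Giving opposite-strand counts back was chosen after seeing the data. Why the other values moved: the cause was not tested.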
